A study of Homo sapiens with 14 samples.

Results

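The regions described here are GATA1 ChIP-seq peaks in the 19q13 segment of PANC-1 cells, a human pancreatic carcinoma line that is known for a copy gain at this site. A peak belonged to the segment if its summit lay in the 4.5 Mb of chromosome 19 that begin at base 37000000 (hg38). That rule uses position alone and took 1493 of 370209 peaks in 2 lists, 524 of 249139 in the list labelled shHDAC5 and 969 of 121070 in the list labelled shControl. The segment was compared with the other 19.5 Mb of a window from base 28000000 to base 52000000 of the same chromosome, which held 1876 peaks of the list labelled shHDAC5 and 2164 of the list labelled shControl. These are called the shHDAC5 list and the shControl list below.

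The ChIP samples were PANC-1 cells labelled as HDAC5 knockdown with the hairpin shHDAC5 and PANC-1 cells labelled WT with the hairpin shControl, both taken at day 3. Each condition had 2 GATA1 immunoprecipitations and 2 inputs, that is, sheared DNA without antibody, and 1 peak list was at hand for each condition. RNA came from another pancreatic cancer line, labelled BxPC-3, with 3 libraries labelled shHDAC5 (genotype HDAC5 knockdown) and 3 labelled shControl (genotype WT), also at day 3. No label says whether replicates were separate cultures, so a p-value here reflects only how far these libraries differ, which may be technical spread.

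Labels and files disagreed in several places. The peaks of the shHDAC5 list carry names with NC, the term that the sample titles use for the control, and the peaks of the shControl list carry names with SAHA, a histone deacetylase inhibitor. HDAC5 itself, the deacetylase the hairpin is aimed at, had 164 ± 4.44 CPM in the libraries labelled shHDAC5 and 94.9 ± 2.99 CPM in those labelled shControl (SD, n = 3 each), so it was higher where its knockdown is labelled (edgeR quasi-likelihood test, adjusted p = 3.95e-40). SMAD4 and CDKN2A, which are known to be deleted in BxPC-3, had 46.8 and 13.7 CPM in the libraries labelled shHDAC5, against 49.6 and 149 CPM in those labelled shControl. Of the epithelial markers, KRT8 and KRT18 were at 327 CPM or more in both groups, KRT7 had 25.3 CPM in the libraries labelled shHDAC5 and 371 CPM in those labelled shControl, and KRT19, EPCAM and CDH1 were at 1.99 CPM or less in both. All groups are therefore called by their labels, and no direction of a knockdown is drawn from them.

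GATA1 is a zinc-finger protein that binds DNA at the letters GATA and is best known for driving red cell and megakaryocyte genes. In ChIP-seq, fragments bound by the antibody pile up at binding sites, and a peak caller asks how far a pile stands above a background taken from the input. A stretch of chromosome that is present in more copies adds fragments to the immunoprecipitation and to the input alike, so both have to be read together. The band 19q13 is dense in genes and holds the kinase gene AKT2, clusters of zinc finger, galectin, interferon lambda and cytochrome P450 genes, and the transcription elongation genes PAF1 and SUPT5H. Copy number was not measured in these files, and its part in any value below was not tested.

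The promoters below are shown because a GATA1 summit fell inside them. They are RefSeq windows of GRCh38.p14, 250 bases before to 50 after the gene's start, read 5′ to 3′ on the gene's strand. Capitals mark GATAA or GATAG with an A or T in front, the core of the GATA site, found on either strand. LGALS4, LGALS7, HIPK4 and MAP4K1 had the promoter summits of highest fold among the genes named here, and IFNL1 was added, after its values were seen, as another named gene with a promoter summit in both lists.
LGALS4, chr19:38812896-38813195, minus strand: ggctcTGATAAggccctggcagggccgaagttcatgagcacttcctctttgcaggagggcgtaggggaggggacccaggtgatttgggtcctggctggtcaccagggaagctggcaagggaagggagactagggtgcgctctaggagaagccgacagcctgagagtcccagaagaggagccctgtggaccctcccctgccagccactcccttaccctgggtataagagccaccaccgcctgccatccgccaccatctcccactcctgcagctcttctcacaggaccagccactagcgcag
LGALS7, chr19:38773468-38773767, minus strand: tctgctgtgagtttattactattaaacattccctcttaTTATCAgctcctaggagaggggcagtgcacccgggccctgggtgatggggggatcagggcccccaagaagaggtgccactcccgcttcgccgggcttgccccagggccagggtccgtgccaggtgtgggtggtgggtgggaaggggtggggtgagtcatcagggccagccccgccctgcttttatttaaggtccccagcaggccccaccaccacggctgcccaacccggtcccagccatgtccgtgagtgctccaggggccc
MAP4K1, chr19:38617904-38618203, minus strand: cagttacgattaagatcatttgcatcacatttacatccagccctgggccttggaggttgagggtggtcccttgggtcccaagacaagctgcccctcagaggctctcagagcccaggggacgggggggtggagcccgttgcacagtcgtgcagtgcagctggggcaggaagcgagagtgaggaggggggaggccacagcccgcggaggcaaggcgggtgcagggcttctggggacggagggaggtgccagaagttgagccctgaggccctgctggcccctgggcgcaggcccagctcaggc
IFNL1, chr19:39296157-39296456, plus strand: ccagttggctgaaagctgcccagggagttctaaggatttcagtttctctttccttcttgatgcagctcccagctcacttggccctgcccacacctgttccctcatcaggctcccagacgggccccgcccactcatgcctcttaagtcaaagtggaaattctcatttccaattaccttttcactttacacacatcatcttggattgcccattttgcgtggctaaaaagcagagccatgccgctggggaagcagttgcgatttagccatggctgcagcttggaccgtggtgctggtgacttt
HIPK4, chr19:40390132-40390431, minus strand: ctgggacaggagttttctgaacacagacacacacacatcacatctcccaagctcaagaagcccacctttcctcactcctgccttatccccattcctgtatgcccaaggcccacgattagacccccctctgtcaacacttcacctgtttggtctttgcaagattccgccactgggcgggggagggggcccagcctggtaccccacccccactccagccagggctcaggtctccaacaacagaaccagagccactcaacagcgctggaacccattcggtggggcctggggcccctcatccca

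At LGALS4, which encodes a gut galectin, the summit of the shHDAC5 list lay 109 bases before the gene's start with 15 fragments over a background of 9.99, and that of the shControl list lay 212 bases before it with 32 fragments over 5.13. The fold there was 1.46 in the shHDAC5 list and 3.62 in the shControl list. At IFNL1, a type III interferon, the summits had 28 fragments over 15.3 in the shHDAC5 list and 65 over 18.8 in the shControl list. The folds at IFNL1 were 1.78 and 2.22 in the same order. LGALS7, HIPK4 and MAP4K1 had a promoter summit in the shControl list only, with 19, 7 and 41 fragments. Of the promoter peaks at these genes, only those of the shControl list at LGALS4 and IFNL1 had a q of at most 0.05. Their −log10 q was 3.23 and 2.21. The peaks of the shHDAC5 list at LGALS4 and IFNL1 did not pass, nor did those of the shControl list at LGALS7, HIPK4 and MAP4K1. The −log10 q was 0.492 at LGALS7 and 1.27 at MAP4K1. One of those letter groups stood in the windows of LGALS4 and LGALS7 and none in the other windows shown. Over the segment, 20 of 111 coding promoters held one (18.0%), against 19.7% of 15843 coding promoters and 24.97% of all 35116 promoters of the table. Of the 16 segment promoters with a summit in either list 6 held one (37.5%, 95% exact binomial interval 15.2% to 64.6%), against 14 of the 95 without (14.7%, 8.30% to 23.5%). By list it was 4 of 7 promoters in the shHDAC5 list and 3 of 12 in the shControl list. The intervals of promoters with and without a summit overlap, which does not show that the shares agree, and no test was run. The match of letters says nothing of binding.

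Taken over the whole rest of the window, peaks were denser in the segment in both lists. The shHDAC5 list had 116 summits per Mb in the segment (95% exact Poisson interval 107 to 127) and 96.2 in the rest (91.9 to 101), a ratio of 1.21 (1.10 to 1.33). The shControl list had 215 per Mb in the segment (202 to 229) and 111 in the rest (106 to 116), a ratio of 1.94 (1.80 to 2.09). The sides of the window differed. In the shHDAC5 list the left side had 116 per Mb (109 to 123) and the right side 79.1 (73.9 to 84.7). In the shControl list these were 125 (118 to 133) and 98.7 (92.7 to 105). Segment density in the shHDAC5 list was thus that of the left side, and its excess was over the right side alone. The segment makes up 18.75% of the window and held 21.8% of its peaks in the shHDAC5 list and 30.9% in the shControl list. With 1 list per condition no test between conditions was possible, and all intervals on peak counts and shares cover counting error only.

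The excess in the shHDAC5 list depended on which peaks were counted. With peaks of at least 2-fold enrichment alone, the density ratio was 0.773 in the shHDAC5 list and 1.63 in the shControl list, a choice added after the data were seen. At 3-fold or more it was 0.642 in the shHDAC5 list. With peaks of q of at most 0.05 alone, the ratio was 14.0 in the shHDAC5 list and 11.7 in the shControl list. In the shHDAC5 list, a threshold on fold thus put the segment below the rest of the window and a threshold on q put it above.

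Significant peaks were concentrated in the segment. In the shHDAC5 list, 29 of the 524 segment peaks had a q of at most 0.05 (5.53%, 3.74% to 7.85%), against 9 of 1876 in the rest (0.480%, 0.220% to 0.909%) and 0.419% of the whole list. The shControl list had 355 of 969 (36.6%, 33.6% to 39.8%), against 132 of 2164 in the rest (6.10%, 5.13% to 7.19%) and 5.10% of the whole list. The segment covers 0.146% of the genome and held 2.78% of all such peaks in the shHDAC5 list (29 of 1045) and 5.75% in the shControl list (355 of 6176).

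Fold enrichment went the other way. The median fold, the caller's ratio of pile to background, was 2.08 in the segment and 2.33 in the rest of the window in the shHDAC5 list, and 2.64 in the segment and 2.76 in the rest in the shControl list. Median −log10 p was 2.59 in the segment and 2.25 in the rest in the shHDAC5 list, and 4.04 and 2.55 in the shControl list. Segment peaks therefore had smaller p-values at smaller folds. They were also wider, with a median of 370 bp in the segment against 312 bp in the rest in the shHDAC5 list, and 462 bp against 343.5 bp in the shControl list. At least 1 kb wide were 9 of 524 segment peaks of the shHDAC5 list (1.72%), against 8 of 1876 in the rest (0.426%). The shControl list had 156 of 969 such peaks in the segment (16.1%), the widest of them 7002 bp, against 43 of 2164 in the rest (1.99%).

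The fragments behind these values were recovered from the peak lists. MACS2, the caller named in the submitters' processing notes, computes fold and p from the pile at the summit and the local background, so both could be solved for every peak. Segment summits had a median of 14 fragments and a background of 6.42 in the shHDAC5 list, against 5 fragments and 1.39 in the rest of the window. The shControl list gave 29 fragments and a background of 6.71, against 10 and 1.496 in the rest. The immunoprecipitation was scaled by 0.663 in the shControl list and not scaled in the other, so fragments are compared within a list. Fragments are given before this scaling, whereas the caller sets the scaled pile against the background. In the shControl list the enrichment is therefore given by the fold, and fragments over background overstate it. The background takes the larger of a genome-wide and a local input level and cannot go below a floor, which was 1.34 in the shHDAC5 list and 1.36 in the shControl list. Backgrounds too are on each list's own scale and are compared within a list. Their commonest step was 0.555 in the shHDAC5 list and a whole number in the shControl list.

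Along the segment the background stood at different levels, and the fitted changes between levels stood at nearly the same place in both lists. It divided the segment into 4 stretches, called here the left part, the first step, the core and the right part. The boundaries were placed by least squares on the background of both lists after its values were seen, so the differences in background between stretches are descriptions. The first boundary lay between summits at 38486049 and 38510896 in the shHDAC5 list and between 38499704 and 38500690 in the shControl list. The boundary of the core lay between 39275443 and 39281328 in the shHDAC5 list and between 39269659 and 39275440 in the shControl list. The drop at the end of the core lay between 40340592 and 40351136 in the shHDAC5 list and between 40342764 and 40366518 in the shControl list. Midpoints of these gaps differed between the lists by 1.72, 5.84 and 8.78 kb.

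In the shHDAC5 list the median background was 1.86 in the left part, 6.97 in the first step, 19.98 in the core and 1.34 in the right part. The shControl list gave 1.96, 6.50, 19.94 and 1.36 in the same order. Relative to the right part, the core was 14.9 times higher in the shHDAC5 list and 14.7 times higher in the shControl list, and the first step 5.21 and 4.78 times. The right part stood at the floor in 80.6% of peaks of the shHDAC5 list and 92.5% of the shControl list, so these ratios have a denominator that the caller limits. Relative to the left part, the core was 10.7 times higher in the shHDAC5 list and 10.2 times in the shControl list. Across the drop, the background was 16.6 at the last core summit and 1.34 at the next summit of the shHDAC5 list, 10.5 kb away. The window to the left of the segment had a median background of 1.67 in the shHDAC5 list and 2.00 in the shControl list, and the window to its right stood at the floor in both.

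**Figure D1:**
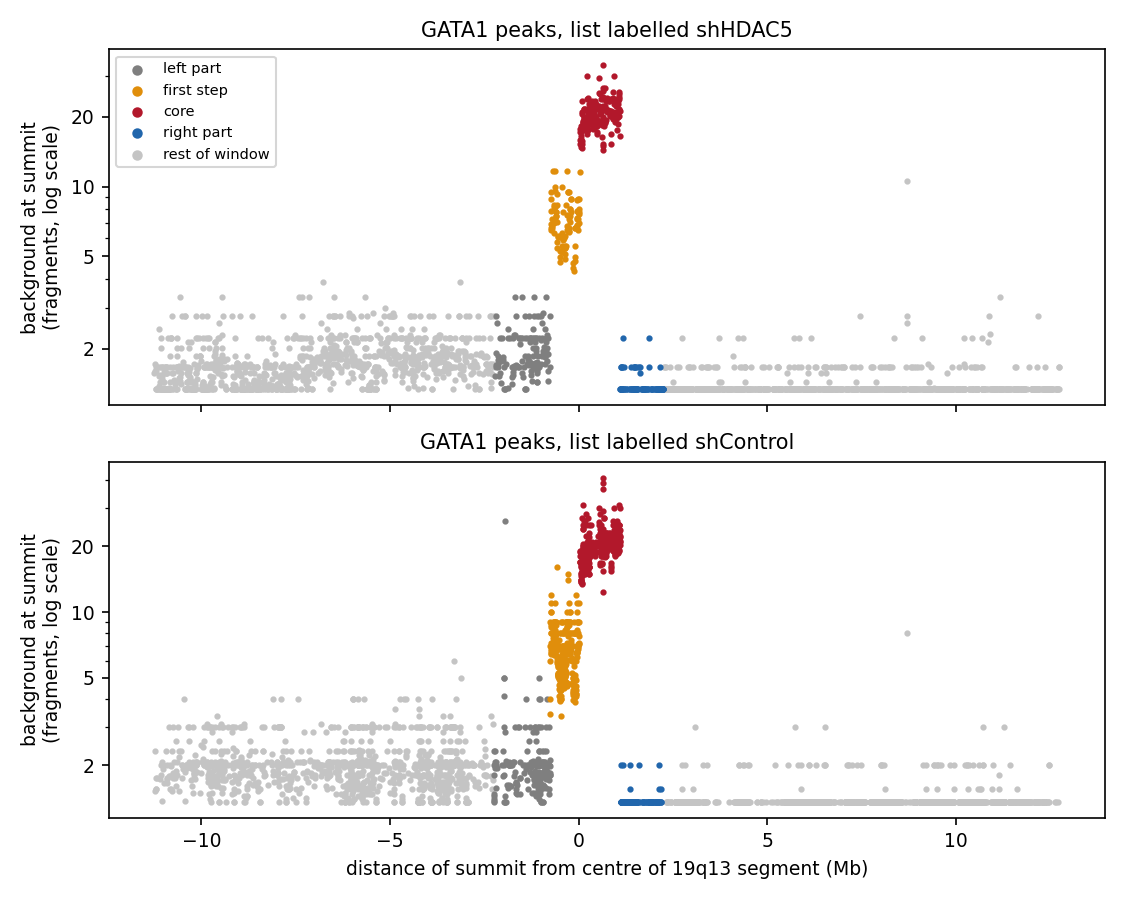
Background at each summit (fragments, log scale) against distance from the centre of the 19q13 segment (Mb), with 1 point per peak, the shHDAC5 list above and the shControl list below. Both lists step up to the first step (orange) and the core (red), with core medians of 19.98 and 19.94, and drop to their floors of 1.34 and 1.36 in the right part (blue). Each list's background is on its own scale.

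Among bins of 500 kb over the genome with at least 10 peaks, the 4 bins from 38500001 to 40500000 ranked 2, 3, 4 and 5 of 5515 by median background in the shHDAC5 list. By the shControl list the same bins ranked 1, 2, 3 and 5 of 3159. These ranks describe the lists and were not tested.

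From the right part to the core, the fragments differed by a smaller factor than the background. The median summit of the core had 35 fragments in the shHDAC5 list, against 16 in the first step, 6 in the left part and 4 in the right part. Medians of the shControl list were 67 in the core, 28 in the first step, 12 in the left part and 8 in the right part. Core summits thus had 8.75 times the fragments of right-part summits in the shHDAC5 list and 8.38 times in the shControl list, where the background differed 14.9 and 14.7 times. Median fold was accordingly lowest in the core, at 1.68 in the shHDAC5 list and 2.19 in the shControl list. It was 2.43 and 3.14 in the left part, 2.03 and 2.62 in the first step, and 2.14 and 2.67 in the right part. The lists hold peaks down to a −log10 p of 1.31 in the shHDAC5 list and 1.303 in the shControl list, a limit that a peak of low fold passes only where the background is high.

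**Figure D2:**
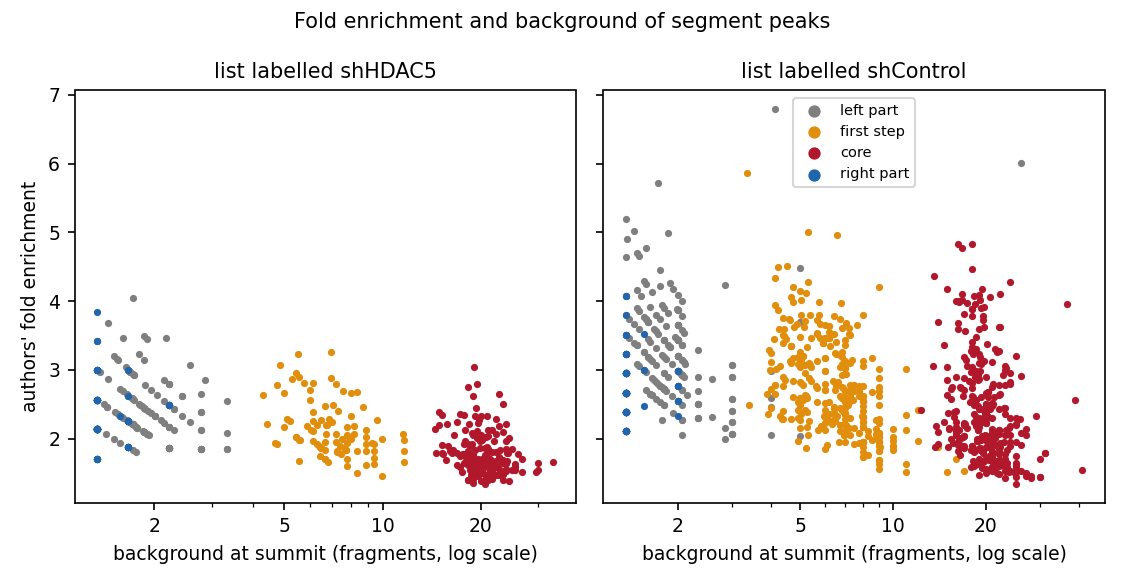
Fold enrichment of each segment peak, as deposited by the authors, against its background (fragments, log scale), with 1 point per peak, the shHDAC5 list left and the shControl list right. Core peaks (red) reach the lowest folds of the segment, 1.35 in the shHDAC5 list and 1.34 in the shControl list.

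The 2 inner stretches carried nearly all significant peaks. The caller computes p and q from the same background by which the stretches were placed. At a given fold, p is smaller where the background is higher, so these shares are descriptions and test nothing. In the shHDAC5 list, the core held 26 peaks with a q of at most 0.05 (13.2% of its 197 peaks, 8.81% to 18.7%), the first step held 3 of 97, and the left and right parts held 0 of 137 and 0 of 93. In the shControl list the core held 189 of 329 (57.4%, 51.9% to 62.9%), the first step 135 of 326 (41.4%, 36.01% to 47.0%), the left part 31 of 207 (15.0%, 10.4% to 20.6%) and the right part 0 of 107. The counts of 0 in the right part allow a share of up to 3.89% in the shHDAC5 list and 3.39% in the shControl list, the upper ends of their exact intervals. Together the core and the first step held 29 of the 29 significant segment peaks of the shHDAC5 list and 324 of the 355 of the shControl list.

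Density followed the same stretches but in a different order in the lists. In the shHDAC5 list it was highest in the core, with 183 summits per Mb (159 to 211), and 125 in the first step (101 to 152). In the shControl list it was highest in the first step, with 420 per Mb (376 to 468), and 306 in the core (274 to 341). The left part had 91.4 and the right part 80.9 per Mb in the shHDAC5 list, and 138 and 93.1 in the shControl list. Without the core and first step, the segment's density was 0.902 times that of the rest of the window in the shHDAC5 list and 1.07 times in the shControl list. The core and first step make up 1.85 Mb of the 4.5 Mb. Outside them, the left part of the shControl list, with an interval of 120 to 158 per Mb, was still above the 111 of the rest of the window. The window left of the segment had 125 per Mb in that list (118 to 133), which lies inside that interval. The left part was thus not set apart from the window beside it.

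By bins of 250 kb, the bins with most summits in the shHDAC5 list began at 39250001, 39500001 and 39750001, with 55, 51 and 48 summits, and the bin with fewest began at 37250001, with 12. For the shControl list the bins with most began at 38500001, 39250001 and 38750001, with 121, 118 and 105, and the bin with fewest began at 40750001, with 16. Bins in the rest of the window held 11 to 40 summits in the shHDAC5 list and 1 to 82 in the shControl list. The median bin held 6 starts of coding genes in the segment and 5 in the rest.

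**Figure D3:**
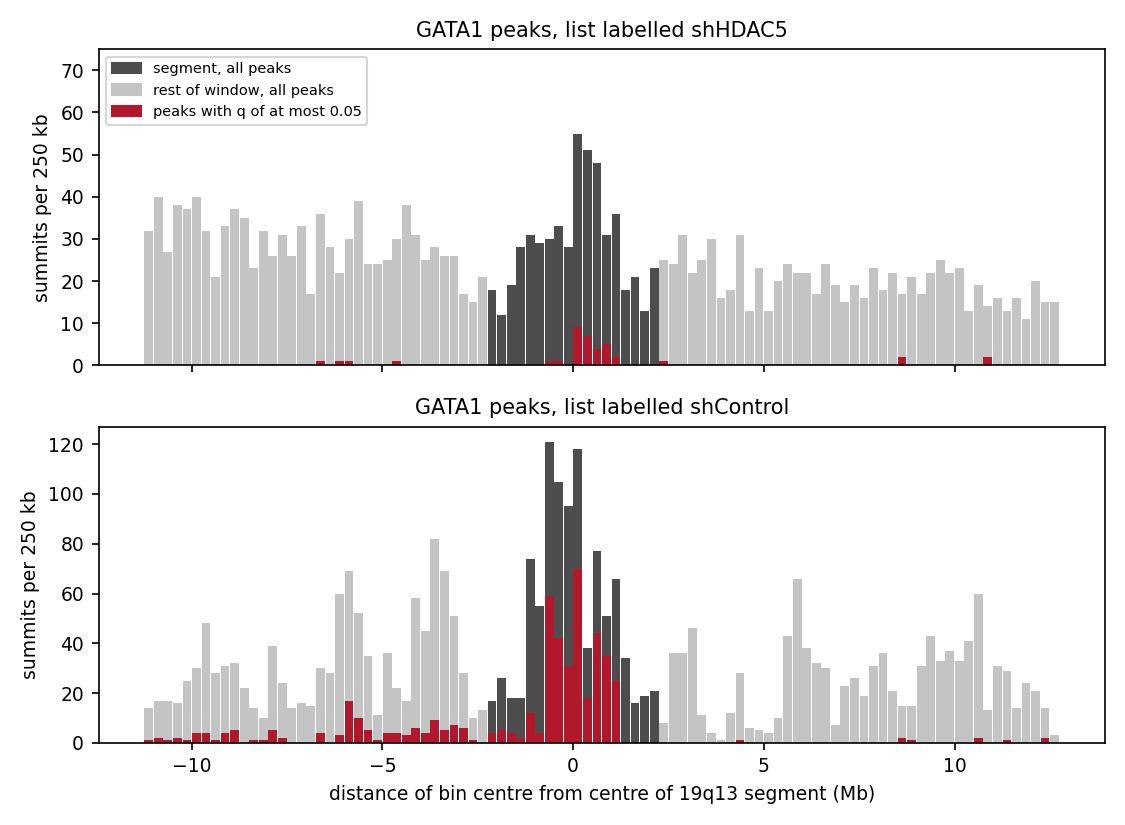
Summits per bin of 250 kb against distance of the bin from the centre of the 19q13 segment (Mb), the shHDAC5 list above and the shControl list below, with segment bins dark, the rest of the window pale and peaks with a q of at most 0.05 in red. The highest bins hold 55 and 121 summits, and the red bars stand mostly in the inner part of the segment.

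Peaks of the segment were shared between the lists more often than peaks of the rest of the window, by an overlap of at least 1 bp. Of the segment peaks of the shHDAC5 list 37.02% (32.9% to 41.3%) overlapped a peak of the other list, against 11.1% in the rest (9.70% to 12.6%). Of those of the shControl list 19.9% (17.4% to 22.6%) did so, against 10.1% in the rest (8.84% to 11.4%). Peaks of the shControl list also covered more bases, 14.5% of the segment and 4.56% of the rest, and peaks of the shHDAC5 list covered 4.78% and 3.51%. How much overlap that coverage would give by position was not computed. In the core, 58.4% of the peaks of the shHDAC5 list and 33.7% of those of the shControl list overlapped the other list. Coverage was higher there too, with 26.8% of core bases in peaks of the shControl list and 8.4% in peaks of the shHDAC5 list.

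The most significant peaks of the shHDAC5 list all lay in the core. The first, chr19:39719078-39719870, 10040 bases from the placental galectin gene LGALS14, had 60 fragments over a background of 19.1, a fold of 3.04 and a −log10 q of 8.59. The shControl list had a peak there too, with 63 unscaled fragments over 20, a fold of 2.04 and a −log10 q of 1.29. The second, chr19:40272627-40273348, lay inside AKT2, a kinase of the insulin pathway, with 62 fragments over 22.8, a fold of 2.65 and a −log10 q of 6.49. The overlapping peak of the shControl list had 69 unscaled fragments over 22.96 and a fold of 1.95. SAMD4B, an RNA-binding translational regulator, held 2 more, at chr19:39381653-39382403 with 56 fragments and at chr19:39347796-39348398 with 60, and GMFG, an actin regulator of blood cells, held 1 at chr19:39334966-39336298 with 52. All 5 of these peaks had folds between 2.51 and 3.04.

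The peaks of highest fold in the shHDAC5 list were others, and lay in the left and right parts. They stood inside CATSPERG, a sperm calcium channel subunit (fold 4.05), PCAT19, a long non-coding RNA gene (3.85), SIPA1L3, a regulator of cell polarity (3.68), and SPINT2, a protease inhibitor (3.49), and 8.27 kb from PPP1R14A, an inhibitor of myosin phosphatase (3.46). Each rested on 8 to 10 fragments over a background of 1.34 to 2.18, and their −log10 q reached 1.29 at most, below the threshold of 1.301. Ranking by fold and ranking by q thus chose no peak in common in this list.

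In the shControl list the most significant peak lay in the left part, at chr19:37293266-37294811, in a place where no gene is annotated, 18.3 kb from the zinc finger gene ZNF875. It had 243 fragments, the most of the segment, over a background of 26.0, where the left part had a median of 1.96, and a −log10 q of 63.0. Neighbouring peaks at chr19:37281113-37281494 and chr19:37282851-37283201 had folds of 6.79 and 5.20, with 51 fragments over 4.13 and 17 fragments over 1.36. None of these 3 peaks overlapped a peak of the shHDAC5 list.

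The next peaks by q in the shControl list lay in the core. FCGBP, a mucus protein, held chr19:39891197-39892473 with 223 fragments over 36.6 and chr19:39889758-39890290 with 160 over 24.0. EID2, an inhibitor of differentiation, held chr19:39539515-39540213, with its summit 286 bases from an end of the gene, where 137 fragments stood over 18.0. SUPT5H, a subunit of the elongation factor DSIF, held chr19:39472118-39475092 with 124 fragments over 16.3. The peaks at EID2 and SUPT5H and the second at FCGBP overlapped peaks of the shHDAC5 list, which had 52, 42 and 50 fragments over 22.2, 19.4 and 24.4. The fold at EID2 was 2.28 in the shHDAC5 list and 4.83 in the shControl list. At SUPT5H the folds were 2.11 and 4.82, and at the second FCGBP peak 2.01 and 4.28. High folds outside the core were found 954 bases from LGALS7B, an epidermal galectin (5.86), and inside GGN, a germ cell gene (5.71).

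Among peaks shared by both lists, the highest folds lay at MAP4K1, a kinase of blood cells, with 3.26 in the shHDAC5 list (25 fragments over 6.97) and 3.44 in the shControl list (40 over 7). SIRT2, a deacetylase of tubulin, and its neighbour RINL, a GTPase regulator, held 2 others, with folds of 3.22 and 3.07 in the shHDAC5 list and 3.46 and 3.40 in the shControl list. CATSPERG had 3.15 in the shHDAC5 list and 3.43 in the shControl list, and RYR1, the calcium release channel of muscle, had 2.99 and 3.63 in the same order. The 5 pairs lay in the left part and the first step. Both peaks had a q of at most 0.05 at MAP4K1 and in the pair with folds of 3.22 and 3.46. The pair with 3.07 and 3.40 passed in the shControl list only. Neither peak passed at CATSPERG, with a −log10 q of 0.314 in the shHDAC5 list and 0.733 in the shControl list. The same held at RYR1, with 0.117 and 1.15. Paired peaks overlap, but their summits can lie apart, as at 38878034 in RINL (shHDAC5 list) and 38880217 in SIRT2 (shControl list). At RYR1 the background was 1.68 in the shHDAC5 list and 1.83 in the shControl list.

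Most genes of the core had a peak at an end. Of the 120 coding genes of the segment, 55 had a summit within 1 kb of either end in the shHDAC5 list (45.8%, 36.7% to 55.2%) and 83 in the shControl list (69.2%, 60.1% to 77.3%), against 138 (30.1%) and 254 (55.3%) of 459 genes in the rest of the window. In the core there were 25 of 32 genes in the shHDAC5 list (78.1%, 60.0% to 90.7%) and 27 of 32 in the shControl list (84.4%, 67.2% to 94.7%), and 21 had both. In the right part there were 8 and 14 of 35, and 3 had both. The first step had 11 and 23 of 24, and the left part 11 and 19 of 29. These counts go with peak density: as a share of peaks, summits near gene ends made up 11.6% of the segment in the shHDAC5 list (9.02% to 14.7%) and 7.52% of the rest (6.36% to 8.80%), and 15.0% and 14.7% in the shControl list. Bases within 1 kb of such an end make up 9.46% of the segment and 8.29% of the rest.

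**Figure D4:**
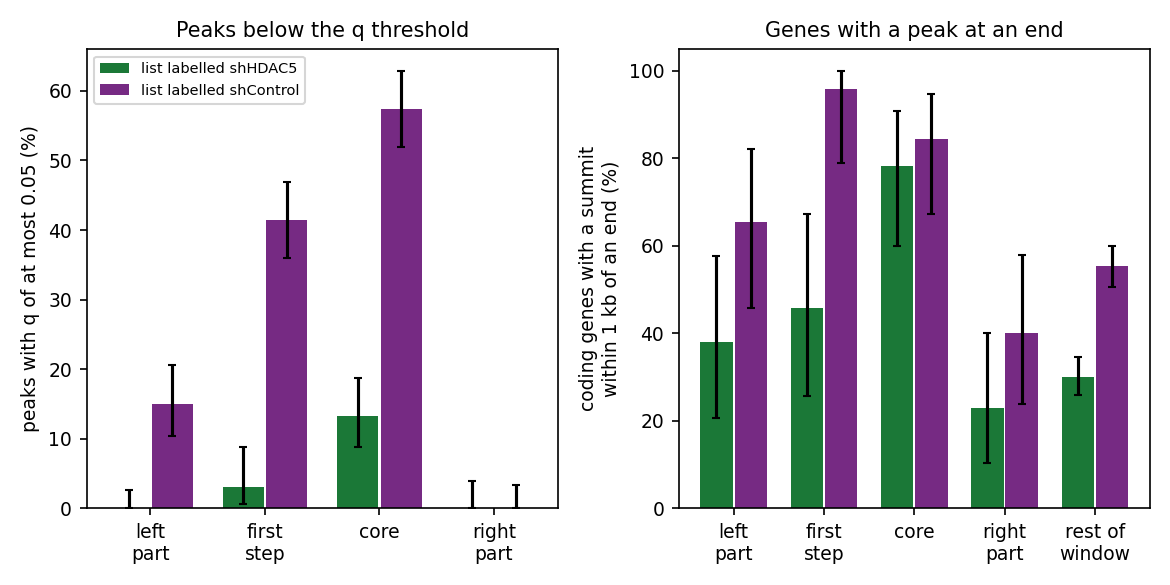
Left, share of peaks with a q of at most 0.05 in each stretch of the segment (%). Right, share of coding genes with a summit within 1 kb of an end (%), with the rest of the window last. Bars give the shHDAC5 list (green) and the shControl list (purple), and error bars are 95% exact binomial intervals. The stretches were placed by the background from which q is computed, so the left panel is a description. Core bars reach 13.2% and 57.4% on the left and 78.1% and 84.4% on the right.

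Kinase genes had summits at an end in 4 of 8 cases in the shHDAC5 list and 7 of 8 in the shControl list. Over all coding genes of the segment the shares were 45.8% and 69.2%. Counts by role, here and below, are descriptions and are not set apart from those shares. AKT2, in the core on the minus strand, held 13 summits of the shHDAC5 list and 25 of the shControl list in its body, of which 1 of the shHDAC5 list and 19 of the shControl list had a q of at most 0.05. MAP3K10, a kinase of the JNK pathway, had at its end 47 fragments over a background of 30.0 in the shHDAC5 list, a fold of 1.55, and 107 over 19 in the shControl list, a fold of 3.59. HIPK4 in the right part had 4 fragments over 1.67 in the shHDAC5 list and 8 over 1.36 in the shControl list. Its fold of 1.88 in the shHDAC5 list was above that of MAP3K10, and its fold of 2.67 in the shControl list was below.

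Of 10 genes of transcription and RNA handling, 4 had a summit at an end in the shHDAC5 list and 8 in the shControl list. At FBL, the methyltransferase of ribosomal RNA, the summits had 44 fragments over 21.0 in the shHDAC5 list and 103 over 22.7 in the shControl list. Fragments of the shControl list are unscaled, and the folds at FBL were 2.04 and 2.92. At MED29, a Mediator subunit, the summits had 48 over 19.98 and 89 over 19.1 in the same order, with folds of 2.34 and 2.99. ZFP36, which destabilises AU-rich messages, had a summit in the shControl list only, with 102 fragments over 17.0. Of 6 genes of protein synthesis and breakdown 4 had one in the shHDAC5 list and 5 in the shControl list. PSMC4, a proteasome ATPase, had 50 fragments over 23.3 in the shHDAC5 list and 86 over 18.0 in the shControl list. Its folds were 2.10 and 3.05. Of 18 zinc finger genes, among which ZFP36 is counted again, 7 and 12 had a summit at an end, and of 7 cytoskeleton, adhesion and matrix genes 2 and 5.

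All 3 interferon lambda genes had a summit at an end in the shControl list, and IFNL1 alone in the shHDAC5 list. They lie in the first step and the core, where 95.8% and 84.4% of all coding genes had one in the shControl list. In the shHDAC5 list these shares were 45.8% and 78.1%. Of 7 galectin genes 4 had one in the shHDAC5 list and 3 in the shControl list, and LGALS4 in both. Of 6 cytochrome P450 genes in the right part, where the background was at the floor, 1 had one in the shHDAC5 list and 2 in the shControl list, each on 8 fragments or fewer. LGALS7 and LGALS7B, IFNL2 and IFNL3, and the CYP2A genes are near-identical copies, so their peaks and their read counts are uncertain.

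RNA of segment genes was measured in the libraries labelled BxPC-3, so it is another readout of the same genes and not of the same cells. Of the 120 genes 118 matched a gene of the count table and 89 passed edgeR's filter on low counts. Among those, 45 rose in the libraries labelled shHDAC5, 37 fell and 7 did not pass (edgeR quasi-likelihood test, Benjamini-Hochberg adjusted p under 0.05). Of all 19181 genes tested 84.7% passed, 44.8% upwards and 39.9% downwards, so the segment's 92.1% is near that background. The median log2 fold change was 0.23 over the tested segment genes and 0.09 over all genes. In the core 14 genes rose and 8 fell of 23 tested, and in the right part 8 rose and 15 fell of 26. At least 2-fold changes were seen for 20 genes upwards and 16 downwards. The share of all genes tested at that limit was not computed, so this count is not set apart from the background.

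In the core the RNA moved in both directions among genes that all stood in raised background. SAMD4B had 378, 385 and 390 CPM in the libraries labelled shHDAC5, against 112, 114 and 117 CPM in those labelled shControl (log2 fold change 1.75, standard error 0.0307, edgeR adjusted p = 1.54e-78). AKT2 had 109, 114 and 105 CPM in the libraries labelled shHDAC5, against 178, 176 and 175 CPM in those labelled shControl (−0.69, standard error 0.0345, adjusted p = 8.66e-37). The groups did not overlap at either gene, and how often that held over all genes tested was not computed. PSMC4 rose to 119 ± 3.14 CPM in the libraries labelled shHDAC5, against 62.8 ± 4.40 CPM in those labelled shControl (SD, n = 3 each; edgeR adjusted p = 3.89e-40). ZFP36 rose by 1.13 on the log2 scale and MED29 by 0.44, and FBL fell by 0.46. RPS16, a ribosomal protein, fell by 0.16, a call that was lost under upper quartile scaling. The zinc finger genes ZNF780A and ZNF780B rose by 0.55 and 0.29 and ZNF546 fell by 1.33. DLL3, a Notch ligand, had 2.89 ± 0.101 CPM in the libraries labelled shHDAC5 and 3.11 ± 0.646 CPM in those labelled shControl and did not pass (SD, n = 3 each; edgeR adjusted p = 0.670).

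**Figure D5:**
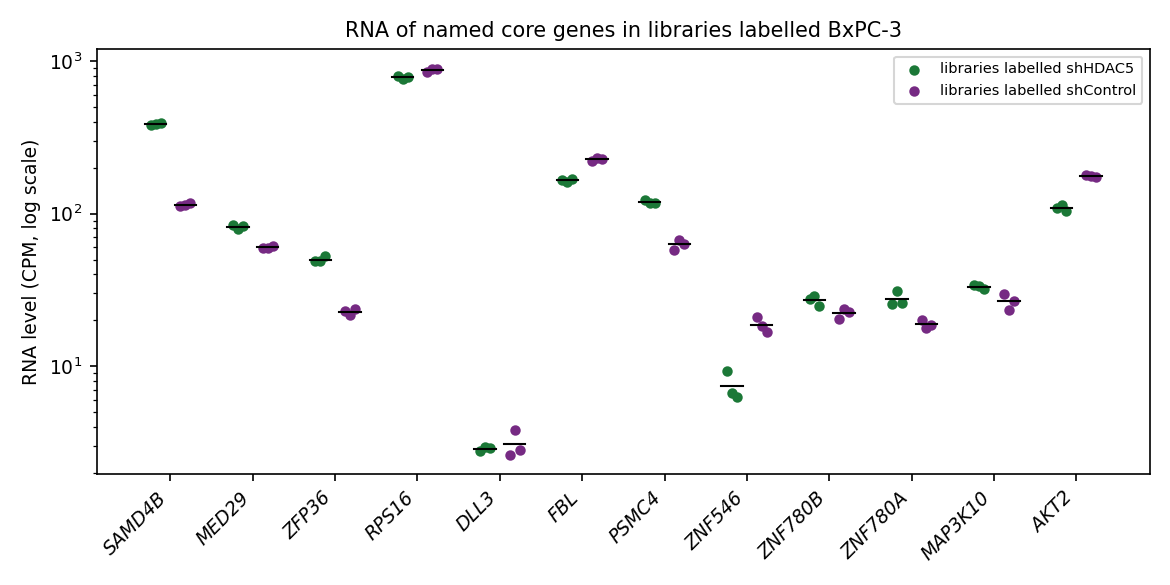
RNA level (CPM, log scale) of the named core genes that were tested, ordered along the chromosome, with 1 point per library labelled shHDAC5 (green, left) or shControl (purple, right) and a line at each mean. SAMD4B is higher in the libraries labelled shHDAC5 and AKT2 lower. Of the genes shown, the groups overlap at DLL3 alone. Of all genes tested 84.7% passed, and the share of them without overlap was not computed.

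In the first step, MAP4K1 had 4.85, 5.84 and 4.64 CPM in the libraries labelled shHDAC5, against 0.515, 0.489 and 1.15 CPM in those labelled shControl (log2 fold change 2.79, standard error 0.258, edgeR adjusted p = 2.62e-18). SIRT2 rose to 50.8 ± 2.58 CPM in the libraries labelled shHDAC5, against 35.9 ± 2.33 CPM in those labelled shControl (SD, n = 3 each; edgeR adjusted p = 1.21e-13), and its neighbour NFKBIB, an inhibitor of NF-kappa-B, by 0.50 on the log2 scale. EIF3K, a subunit of an initiation factor, fell by 0.51 and ACTN4, an actin crosslinker, by 0.20. The ACTN4 gene overlaps CAPN12, a calpain that rose by 0.67, and without a stated strand setting their reads cannot be told apart. In the left part SIPA1L3 rose by 0.73 and ZNF540 by 1.80, and SPINT2 fell by 2.22 at 0.251 CPM in the libraries labelled shHDAC5 and 1.19 CPM in those labelled shControl. In the right part SERTAD1, a cell cycle regulator, rose by 1.51 and CYP2S1, a cytochrome P450 of epithelia, by 0.79.

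With 44.8% of all genes tested called upwards and 39.9% downwards, counts by role are given as a description and say little of the groups themselves. By role, 3 kinase genes rose and 3 fell of 7 tested, 5 of transcription and RNA handling rose and 5 fell of 10, and 2 of protein synthesis and breakdown rose and 4 fell of 6. Of 18 zinc finger genes 10 rose, 5 fell and 3 did not pass. Of 7 cytoskeleton, adhesion and matrix genes 4 rose and 3 fell, and all 3 cytochrome P450 genes tested rose. Of the galectin genes LGALS7B alone was tested and rose to 1.40 CPM in the libraries labelled shHDAC5, against 0.105 CPM in those labelled shControl, a mean that rests on 5 counts in 3 libraries. Its log2 fold change of 3.61 became 4.22 without shControl replicate 3, and that of CYP2A6, at 1.35 CPM in the libraries labelled shHDAC5 and 0.137 CPM in those labelled shControl, went to 5.11 without shControl replicate 2, against 3.30 with it. LGALS4 and IFNL1, whose promoters held summits in both lists, had 0.0394 and 0 CPM in the libraries labelled shHDAC5 and 0.0429 and 0 CPM in those labelled shControl and were not tested.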

How the data were processed

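GATA1 ChIP-seq peaks (PANC-1) and RNA counts (libraries labelled BxPC-3) were grouped by treatment and antibody in the labels. Per the submitters' processing notes the tools were MACS2 2.2.7.1, featureCounts 2.0.1, deepTools 3.5.0, FastQC 0.11.9, and fastp 0.23.2, with build hg38; for the aligner, strand setting, duplicate handling and pooling, the sources used here give nothing. The authors deposited a fold enrichment (a ratio), a score, −log10 p and −log10 q for each peak, and raw read counts per Ensembl gene. Input libraries enter only through the caller's background, and the depth of the ChIP libraries is unknown here.

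Fragments k and background λ at each summit were solved from fold = (s k + 1)/(λ + 1) and the Poisson p, with s the caller's scale for the immunoprecipitation. All peaks had a solution within 0.0005 in −log10 p, and 100% of window peaks of the list labelled shHDAC5 and 99.5% of those of the list labelled shControl had only 1; the method was chosen after the data were seen and tested on simulated data. Of the backgrounds above the floor and under 6, 41.7% in the list labelled shHDAC5 lay within 0.002 of a whole multiple of 0.555 and 37.8% in the list labelled shControl within 0.002 of a whole number; these steps were the ones met most often. The peak nearest to the segment's left end had a fold of 3.16 inside and 2.38 outside in the list labelled shHDAC5, and 2.99 inside and 2.83 outside in the list labelled shControl; at the right end these were 2.56 and 1.88, and 3.52 and 2.95.

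RNA totals were 15935649 to 16889876 counts per library labelled shHDAC5 and 15179758 to 17854340 per library labelled shControl. In R 4.3.3, edgeR 4.0.16 kept genes by its count filter, applied TMM scaling and ran its quasi-likelihood test with group as the one term; p-values were adjusted by Benjamini-Hochberg over 19181 genes and called under 0.05; CPM use TMM-scaled totals. All else ran in Python 3.11.15 (scipy 1.17.1, pandas 2.3.3, figures by matplotlib 3.10.9). Gene positions and promoters came from RefSeq (GRCh38.p14); with no genome sequence in use, peaks themselves were not searched for motifs. Named were, in each list, the 5 segment peaks highest by fold, the 5 highest by q and the 5 shared peaks with the highest lower fold; up to 4 genes per role list, first those with summits at an end in both lists, then by fold, then by adjusted p in RNA; and genes that hold a named peak. Members and lists were chosen with earlier results of these data known. Alternatives were other peak thresholds, areas, overlaps and windows, DESeq2 1.42.0, other scalings and filters, a 2-fold limit, the replicate block and leaving out each RNA library.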

Additional observations from a re-analysis of the deposited data

How the results depend on the processing

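The density ratio of segment to rest in the shHDAC5 list (1.21) fell below 1 with peaks of at least 2-fold (0.773) or 3-fold enrichment (0.642) and without the core and first step (0.902). It was 1.55 at a −log10 p of at least 2, 2.21 at 3 and 14.0 at a q of at most 0.05, 1.43 against the rest of chromosome 19, 1.44 against the genome and 1.42 for the segment from 38 to 41 Mb. In the shControl list (1.94) it was 2.34, 3.83 and 11.7 at the same thresholds on p and q, 1.63 at 2-fold or more, 1.45 with peaks under 1 kb apart merged, 5.53 against the genome, 2.55 from 38 to 41 Mb and 1.07 without the core and first step. The ratio of median folds (0.891 in the shHDAC5 list and 0.954 in the shControl list) was 0.843 and 0.908 at a −log10 p of at least 2 and 0.550 and 0.727 at a q of at most 0.05, where the ratio of widths in the shHDAC5 list was 1.46. The ratio of shares at q of at most 0.05 in the shControl list (6.01) was 13.1 at 0.01 and 7.56 against the genome. With an overlap of 50% of the shorter peak, 30.5% of segment peaks of the shHDAC5 list and 15.9% of the shControl list were shared, against 7.14% and 6.19% in the rest. Summits near gene ends made up 7.82% within 500 bp, 34.7% within 5 kb and 27.6% of significant peaks in the shHDAC5 list, and 8.57%, 44.99% and 19.2% in the shControl list. The cause of these shifts was not tested, beyond the removal of peaks or areas that each choice makes. The 2 choices of fold of at least 2 and of leaving out the inner stretches were added after the data were seen.

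With a 2-fold limit, 36 segment genes changed in RNA, 20 upwards and 16 downwards, and the share of all genes at that limit was not computed. Leaving out 1 library at a time gave 81 to 84 changed genes, 44 to 46 of them upwards and 37 to 38 downwards. Same-numbered RNA libraries did not deviate together (correlations of −0.013, 0.0026 and 0.0059), so the numbers were not taken to pair them, and the fit with a replicate block gave 82 changed genes, 45 upwards and 37 downwards, as without it. Upper quartile scaling raised the median of all genes by 0.14 on the log2 scale, and no called segment gene changed sign under it or under DESeq2. DLL3, which did not pass, had −0.096 by default, went to 0.044 under it and lay between −0.214 and 0.057 when 1 library was left out (0.057 without shControl replicate 2). Of 312 values for 26 named genes, 293 kept direction and side of the threshold and 17 lost the threshold, RPS16 among them under upper quartile scaling (−0.016).

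With 1 list per condition, differences between the lists have no replicate check, the scale of the immunoprecipitation differs between the lists, and the depth of the ChIP libraries is unknown here. The floor of the background limits every ratio to the right part.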

Other observations

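Summits lay inside an annotated gene in different shares along the segment. In the shHDAC5 list the share was 88.3% in the left part, 62.9% in the first step, 54.3% in the core and 81.7% in the right part. In the shControl list it was 85.0%, 76.4%, 68.4% and 79.4% in the same order. The core thus had the lowest share of summits inside genes in both lists. Its genes had peaks at their ends most often in the shHDAC5 list. The share of bases inside genes in each stretch was not computed, so the shares of summits have no background beside them.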
